A study of Homo sapiens with 60 samples.

Results

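A set of 10 genes that mark canonical Wnt signalling and the intestinal crypt stem cell were followed through all treatments of HT29 cells, an established line from a human colorectal adenocarcinoma. They were the R-spondin receptor LGR5, the ubiquitin ligases RNF43 and ZNRF3, the scaffold AXIN2, the Dishevelled inhibitor NKD1, the secreted deacylase NOTUM, and the transcription factors TCF7, LEF1, SP5 and ASCL2. They were taken by symbol from a table of 60675 genes. Each matched 1 row, and 9 of the 10 were among the 16767 genes with enough counts to test.

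Cells were harvested after 24 h. The vehicle was 0.1% DMSO per the labels, whereas the series text gives 2% DMSO. A DMSO share was recorded for the vehicle group only. Whether extract cells also received DMSO was not established here, so a difference in DMSO and an extract effect cannot be told apart. Wortmannin and LY294002, a pair of inhibitors of phosphoinositide 3-kinase (PI3K), were used at 10 µM each as positive controls. Hot water extracts of 6 medicinal herbs were used at 500, 100 and 20 µg/mL. They came from Paeoniae Radix, Angelicae Gigantis Radix, Panax Ginseng, the licorice root Glycyrrhizae Radix, Atractylodis Rhizoma and Poria cocos, each named by its first word below, or Ginseng. There were 60 libraries in 21 groups, 3 libraries to a group except for the 3 Paeoniae groups, which had 2. All groups share the same line and culture, and it is not stated whether replicates came from separate cultures, so the p-values measure the spread between these libraries, which may be technical. In bulk RNA, fewer cells of one kind and less RNA per cell cannot be told apart.

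Wnt proteins bind Frizzled and LRP co-receptors at the cell surface and stop a cytoplasmic complex of AXIN, APC and GSK3 from marking β-catenin for destruction. β-catenin then enters the nucleus and, bound to TCF/LEF factors, raises a set of target genes, many of which feed back on the pathway. RNF43 and ZNRF3 remove Frizzled from the surface, AXIN2 rebuilds the destruction complex, NKD1 acts on Dishevelled, and NOTUM strips a lipid from Wnt proteins that they need for receptor binding. LGR5 and ASCL2 mark the stem cells at the base of the crypt. HT29 carries truncated APC, and its Wnt pathway is active without added ligand.

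Total counts ran from 20431980 to 35477712 per library. Among the epithelial genes, EPCAM averaged 558 CPM (normalised read counts relative to library size) and KRT8 averaged 6656 CPM, whereas the intestinal factors CDX1 and CDX2 averaged 0.864 and 5.07 CPM. Of 5 crypt stem cell markers, LGR5, RGMB and ASCL2 were detected and OLFM4 (0.00684 CPM) and SMOC2 (0.0718 CPM) were near 0. Of 11 fibroblast, leukocyte and endothelial markers, 3 had a mean above 1 CPM: CD14 (3.59), PECAM1 (1.70) and COL1A1 (1.26). PDGFRA was at 0 in every library.

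Per kilobase of exon, the ubiquitin ligase RNF43 (chromosome 17, 58352500 to 58417595 in GRCh38, minus strand) was the most abundant member in vehicle, at 48.3 ± 0.538 CPM per kb (SD, n = 3). AXIN2 (chromosome 17, 65528563 to 65561647) followed at 17.9 ± 1.84 CPM per kb and ZNRF3 (chromosome 22, 28883592 to 29057487) at 17.7 ± 0.618 CPM per kb. These levels differed by less than their spread. TCF7 (chromosome 5, 134114711 to 134151865) and LGR5 (chromosome 12, 71439770 to 71586310) came next at 8.41 ± 0.515 and 7.61 ± 0.453 CPM per kb, and their libraries overlapped. SP5 (chromosome 2, 170715351 to 170718078) stood at 4.27 ± 0.544 and ASCL2 (chromosome 11, 2268495 to 2270952) at 2.17 ± 0.460 CPM per kb. The feedback inhibitors NOTUM (chromosome 17, 81952507 to 81961840) and NKD1 (chromosome 16, 50548330 to 50649249) were low, at 0.348 ± 0.035 and 0.070 ± 0.018 CPM per kb.

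LEF1 (chromosome 4, 108047545 to 108168956), a TCF/LEF factor, had 0 to 7 counts in a library, with a median of 2 and 4 libraries at 0. It did not pass the filter on low counts and is left out of every test. NOTUM had 12 to 48 counts and NKD1 15 to 58 counts per library, so their fold changes carry the widest errors among the members tested. Exons of RNF43 overlap those of SUPT4H1 and of a readthrough transcript on the same strand, and exons of AXIN2 overlap an unnamed gene on the same strand, so their counts could be split with those genes. Exons of TCF7 overlap SKP1 on the opposite strand, and exons of LGR5, NKD1 and LEF1 overlap antisense genes. Whether the counting used strand is not given in the sources used here.

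**Figure D1:**
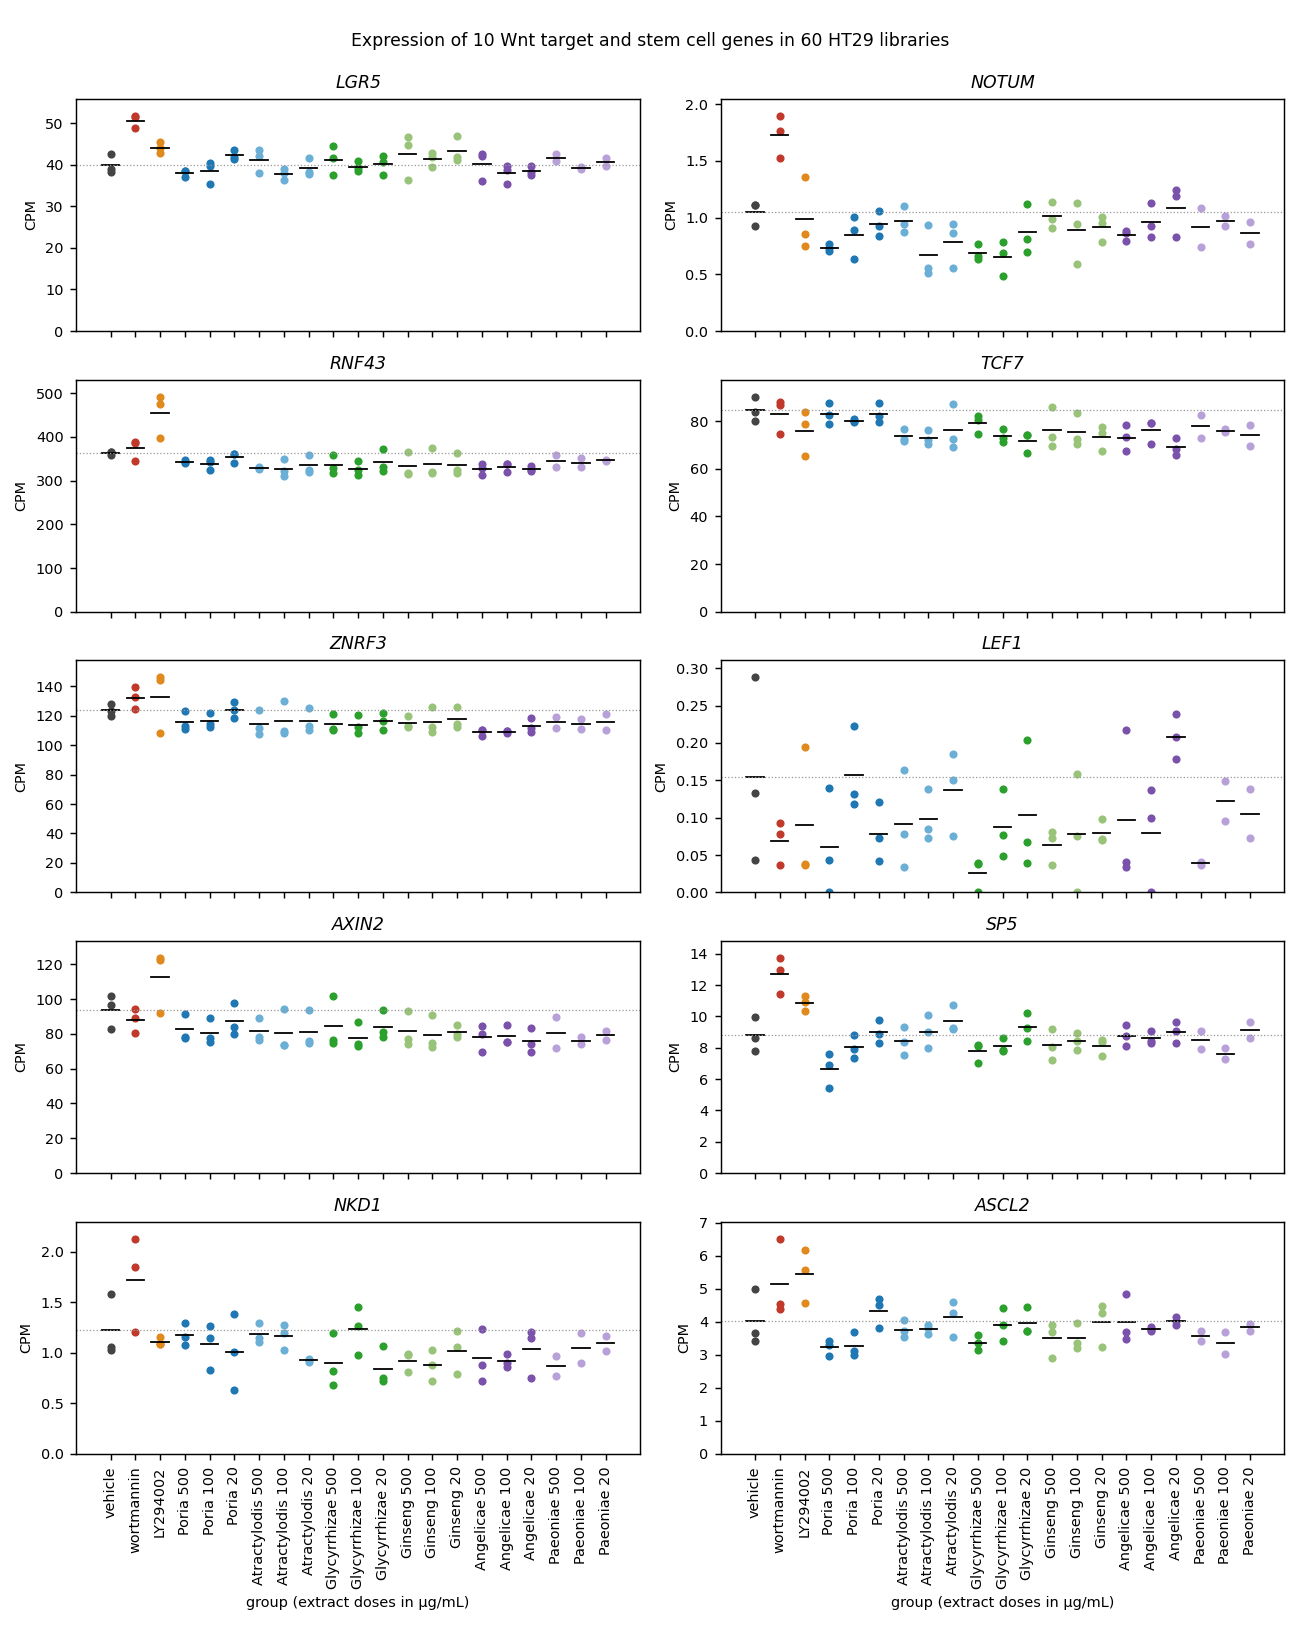
Expression of the 10 genes in CPM (vertical axis, from 0) in the 60 libraries, by group (horizontal axis; extract doses in µg/mL). Points are libraries, black bars group means, and the dotted line is the vehicle mean. The 3 wortmannin libraries are the highest of LGR5, NOTUM and SP5, and LY294002 holds the highest RNF43 and AXIN2 values, while LEF1 is at or near 0 throughout.

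Wortmannin raised 3 of the 9 members tested, LGR5, SP5 and NOTUM, and lowered none (edgeR quasi-likelihood test, Benjamini-Hochberg adjusted p under 0.05 over all genes). Of all genes tested, 13.7% were called in that comparison, 6.26% as higher and 7.46% as lower. The median log2 fold change was 0.34 over the members and 0 over all genes.

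LGR5, the receptor for R-spondins, which strengthen Wnt signals, measured 38.2, 39.1 and 42.7 CPM in the vehicle libraries and 51.4, 51.7 and 48.8 CPM with wortmannin. All 3 wortmannin libraries lay above all vehicle libraries, and also above every extract library, of which the highest measured 46.8 CPM. The log2 fold change was 0.34 ± 0.07 (SE, adjusted p = 0.00037). It stayed between 0.31 and 0.39 and kept its call in all 13 alternative settings.

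SP5, a zinc finger factor induced directly by β-catenin, measured 7.77, 9.99 and 8.62 CPM in vehicle and 11.5, 13.0 and 13.7 CPM with wortmannin. Again the groups did not overlap. The log2 fold change was 0.53 ± 0.10 (adjusted p = 0.000275) and held its call in all 13 settings.

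SP5 carried the most called changes of any member, in both directions, so the DNA before its start is shown here, with a TCF7 start and an RNF43 start for comparison. The windows hold the 250 bases before a transcription start of the RefSeq table (GRCh38.p14), which covered 4 of the 10 members with 6 windows. Starts of a gene are numbered by ascending coordinate. RNF43 lies on the minus strand, so the start called first here is the one further inside the gene. Shown are the 3 windows that share no base with an exon of their own gene in GENCODE 29. Exons of other genes were not checked. Capitals mark matches, on either strand, to the TCF/LEF core motif, spelled CTTTG followed by A or T and again by A or T, and lower case is the rest.
SP5, chr2:170715087-170715336, plus strand: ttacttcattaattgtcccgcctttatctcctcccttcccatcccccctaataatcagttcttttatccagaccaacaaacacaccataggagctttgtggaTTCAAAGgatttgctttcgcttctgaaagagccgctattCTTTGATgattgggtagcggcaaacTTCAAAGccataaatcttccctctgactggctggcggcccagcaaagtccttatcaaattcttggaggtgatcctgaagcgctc
TCF7, second start, chr5:134123368-134123617, plus strand: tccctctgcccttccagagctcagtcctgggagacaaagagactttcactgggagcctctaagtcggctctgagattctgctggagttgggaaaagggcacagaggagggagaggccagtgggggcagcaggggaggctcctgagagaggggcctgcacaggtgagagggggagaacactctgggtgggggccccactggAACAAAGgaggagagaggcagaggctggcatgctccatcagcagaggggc
RNF43, first start, chr17:58402722-58402971, minus strand: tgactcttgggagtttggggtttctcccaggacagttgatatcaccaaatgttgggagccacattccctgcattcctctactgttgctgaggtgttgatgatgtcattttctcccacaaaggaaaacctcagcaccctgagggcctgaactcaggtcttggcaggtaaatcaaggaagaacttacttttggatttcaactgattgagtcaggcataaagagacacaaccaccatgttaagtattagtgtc
The SP5 window held 3 matches. Counted from the start, they span -148 to -142 (CTTTGAA, minus strand), -109 to -103 (CTTTGAT, plus strand) and -84 to -78 (CTTTGAA, minus strand). The TCF7 window held 1 match, CTTTGTT on the minus strand at -50 to -44, and the RNF43 window held 0. Of all 6 member windows, 2 held a match. Among 34788 windows of that length in the RefSeq table, 12.0% held at least 1 match. That share includes windows that overlap exons. A match is a string of letters and does not show binding.

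NOTUM, the Wnt deacylase, measured 1.11, 1.11 and 0.928 CPM in vehicle and 1.53, 1.76 and 1.90 CPM with wortmannin. The groups did not overlap, and the log2 fold change was 0.71 ± 0.22 (adjusted p = 0.0215). The call rested on few counts. It was lost in 5 of 13 settings, among them without vehicle replicate 3 (adjusted p = 0.0929), wortmannin replicate 2 (0.0613) or wortmannin replicate 3 (0.0698), with log2 fold changes of 0.63 to 0.79 over all settings.

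The other 6 members did not pass the test with wortmannin. ASCL2, a stem cell factor, went from 4.02 ± 0.851 to 5.15 ± 1.18 CPM (log2 fold change 0.35 ± 0.15, adjusted p = 0.11), with overlapping libraries. It was called without vehicle replicate 3 (0.53, adjusted p = 0.0225). NKD1 went from 1.22 ± 0.309 to 1.72 ± 0.475 CPM (0.51 ± 0.23, adjusted p = 0.133), also with overlap, and was called without wortmannin replicate 3 (0.70, adjusted p = 0.0388). RNF43, ZNRF3, AXIN2 and TCF7 had log2 fold changes of 0.04, 0.10, -0.09 and -0.03, and their libraries overlapped those of vehicle. Values that missed the threshold do not show equal expression.

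LY294002 also raised 3 of 9 members, namely RNF43, SP5 and ASCL2, and lowered none. That share is to be read against 39.2% of all genes called in the comparison, 18.7% as higher and 20.5% as lower. The median log2 fold change was 0.14 over the members and 0.01 over all genes.

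RNF43 measured 365, 365 and 358 CPM in vehicle and 476, 492 and 398 CPM with LY294002. Every LY294002 library was above every vehicle library, with replicate 3 the lowest of the treated ones. The log2 fold change was 0.33 ± 0.07 (adjusted p = 6.33e-05) and was called in all 13 settings, between 0.27 and 0.42. Without LY294002 replicate 3, the effect was at the upper end of that range.

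SP5 measured 10.4, 11.3 and 11.0 CPM with LY294002, all above vehicle, a log2 fold change of 0.30 ± 0.11 (adjusted p = 0.0184). ASCL2 measured 3.41, 3.66 and 5.00 CPM in vehicle and 5.56, 4.58 and 6.19 CPM with LY294002, with overlap. Its log2 fold change was 0.44 ± 0.14 (adjusted p = 0.0135). Both calls depended on single libraries. SP5 was not called without vehicle replicate 1 (0.22, adjusted p = 0.134), vehicle replicate 3 (0.29, adjusted p = 0.0559) or LY294002 replicate 2 (0.28, adjusted p = 0.0594). ASCL2 was not called without vehicle replicate 1 (0.33, adjusted p = 0.0999), vehicle replicate 2 (0.37, adjusted p = 0.0722) or LY294002 replicate 3 (0.33, adjusted p = 0.106).

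LY294002 replicate 3 was low for the destruction complex scaffold and both ligases. Replicate 3 was also the lowest for these genes in vehicle and wortmannin, though nearer to its group mean. Leaving out LY294002 replicate 3 alone therefore keeps the lowest vehicle library. AXIN2 measured 122, 124 and 91.8 CPM in the LY294002 libraries against 96.4, 102 and 82.9 CPM in vehicle. ZNRF3 measured 146, 145 and 108 CPM against 123, 128 and 120 CPM. With all libraries and no replicate block neither gene was called (AXIN2 0.27 ± 0.12, adjusted p = 0.0743, ZNRF3 0.10 ± 0.07, adjusted p = 0.282). Without LY294002 replicate 3 both were higher, AXIN2 by 0.39 (adjusted p = 0.0125) and ZNRF3 by 0.23 (adjusted p = 0.00691). With all libraries and the replicate number as a block, AXIN2 was higher by 0.26 (adjusted p = 0.00253). Of 13 alternative settings, AXIN2 was called in 4 and ZNRF3 in 1, that without LY294002 replicate 3. ZNRF3 was thus not called with a replicate block. TCF7 measured 84.0, 78.9 and 65.3 CPM with LY294002 and 80.0, 83.7 and 90.2 CPM in vehicle (-0.15 ± 0.08, adjusted p = 0.136). It was called lower without LY294002 replicate 1 (-0.23, adjusted p = 0.0364). Mitochondrial genes took 9.70%, 9.39% and 8.73% of the counts in the LY294002 libraries and 8.61%, 9.90% and 11.4% in vehicle.

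Other cell states moved with both inhibitors. The summed level of 6 proliferation markers was 2068 to 2250 CPM in vehicle, 1602 to 1720 CPM with wortmannin and 1167 to 1283 CPM with LY294002. MKI67, a marker of cycling cells, fell by 0.51 ± 0.09 on the log2 scale with wortmannin and by 1.06 ± 0.09 with LY294002. The summed level of 11 colon epithelium markers was 12472 to 12998 CPM in vehicle, 14173 to 14671 CPM with wortmannin and 15623 to 17654 CPM with LY294002, without overlap. Most of that sum is KRT8 and KRT18, with means of 6656 and 3974 CPM over all libraries. The group means of EPCAM ran only from 513 to 575 CPM, so the sum does not show that all 11 rose. Of 6 secretory cell markers, 5 were tested. LYZ, a Paneth cell lysozyme, rose with wortmannin (0.41 ± 0.07) and LY294002 (0.64 ± 0.07), and SPDEF, a goblet cell factor, fell with both (-0.28 ± 0.09 and -0.22 ± 0.09). The goblet cell genes MUC2 (-0.72 ± 0.13) and FCGBP (-0.54 ± 0.13) fell with LY294002 and were not called with wortmannin, and TFF3 was called with neither. The 3 of 6 absorptive cell markers that were tested, SI, FABP1 and CA2, were not called with either inhibitor. CD14 rose with wortmannin (0.60 ± 0.13). The part of these changes in the values of the 10 genes was not tested.

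The inhibitors were then set against each other, since each against the shared vehicle does not compare them. Of the 9 members, 3 were higher with wortmannin than with LY294002 and 2 lower, where 22.2% of all genes were called, 12.7% as higher and 9.49% as lower. NOTUM was higher by 0.80 ± 0.22 (adjusted p = 0.00496), with LY294002 libraries at 1.36, 0.856 and 0.750 CPM, all below those with wortmannin. NKD1 was higher by 0.65 ± 0.22 (adjusted p = 0.0307), at 1.84, 2.13 and 1.20 CPM with wortmannin and 1.09, 1.15 and 1.09 CPM with LY294002. LGR5 was higher by 0.20 ± 0.07 (adjusted p = 0.0275), with LY294002 libraries at 44.0, 42.8 and 45.5 CPM.

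The 2 genes that were lower with wortmannin than with LY294002 were RNF43 and AXIN2. RNF43 differed by -0.28 ± 0.07 (adjusted p = 0.000924), with wortmannin libraries at 386, 389 and 345 CPM and no overlap. AXIN2 differed by -0.35 ± 0.12 (adjusted p = 0.0267), at 89.1, 94.4 and 80.5 CPM with wortmannin, and the libraries overlapped. SP5, raised by both inhibitors, differed by 0.22 ± 0.10 (adjusted p = 0.111). Among the inhibitor comparisons, the direct one was the least stable. The RNF43 call was lost in 1 of 13 settings, NOTUM in 2, LGR5 and AXIN2 in 5 each and NKD1 in 8.

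Named by library, the NOTUM call between inhibitors was lost without LY294002 replicate 3 (0.64, adjusted p = 0.0563). The NKD1 call was lost without any one of wortmannin replicates 1 and 2 or LY294002 replicates 1, 2 and 3, with adjusted p of 0.0553 to 0.213. The LGR5 call was lost without any one of replicates 1 and 2 of either inhibitor, with log2 differences of 0.18 to 0.20. The AXIN2 call was lost without wortmannin replicate 1 or 3 or LY294002 replicate 1 or 2, with differences of -0.36 to -0.28.

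**Figure D2:**
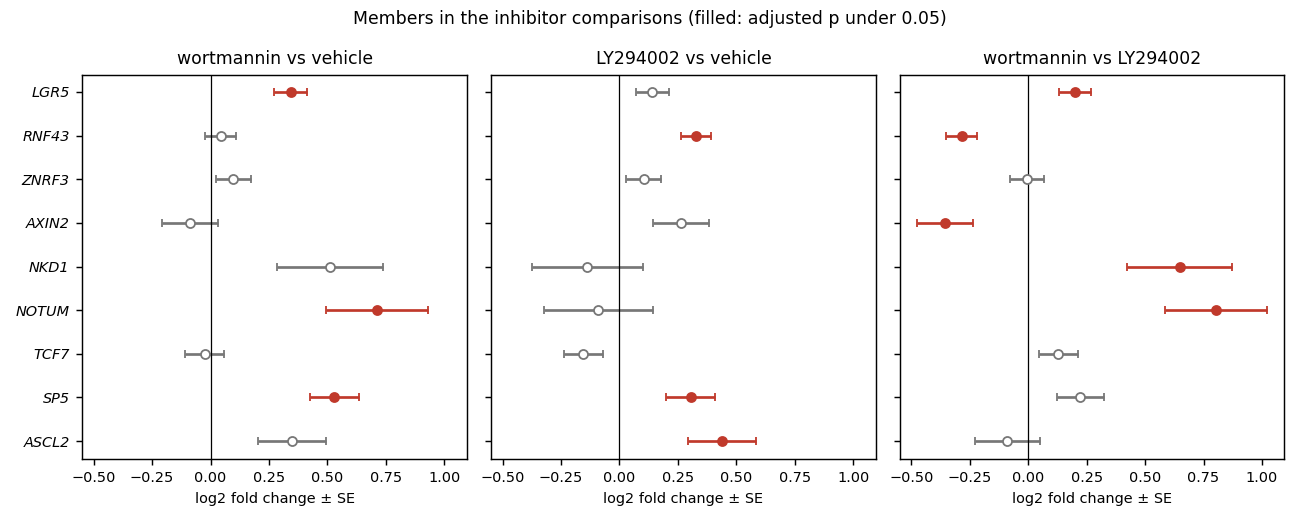
Log2 fold change (horizontal axis) with its SE for the 9 members tested, in wortmannin against vehicle, LY294002 against vehicle and wortmannin against LY294002. Filled red points have an adjusted p under 0.05. SP5 is filled in both comparisons with vehicle, LGR5 and NOTUM with wortmannin and RNF43 and ASCL2 with LY294002, and the third panel has 3 filled points above 0 and 2 below.

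The rest of the pathway was read from 6 lists of 117 genes, of which 82 were tested. With wortmannin 8 rose, 4 fell and 70 were not called, so 14.6% were called, near the 13.7% of all genes. Among ligands and secretion, WNT11, a ligand, rose by 0.37 on the log2 scale and WLS, which carries Wnt proteins to the surface, by 0.15. Among receptors FZD1 rose by 0.47 and LGR4, the broadly expressed relative of LGR5, fell by 0.22. APC, the tumour suppressor of the destruction complex, fell by 0.22. The crypt receptor EPHB2, a known Wnt target, rose from 3.34 to 4.93 CPM (0.56) and PROM1, a surface marker of crypt cells, rose by 0.45, whereas ALCAM fell by 0.47.

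With LY294002, 19 of the 82 rose, 15 fell and 48 were not called, which is 41.5% called against 39.2% of all genes. WNT11 rose from 17.6 to 33.6 CPM (0.93), and the receptors FZD4 and FZD7 rose by 0.45 and 0.31. Of 20 genes of cytoplasmic transduction, the destruction complex among them, 4 rose, 4 fell and 12 were not called. The risers were DVL2 (0.28), BTRC (0.23), CTNNB1 (0.18) and TNKS2 (0.13). The largest called changes were those of APC, which fell by 0.46, AMER1, which brings APC to the membrane, by 0.45 and GSK3A, a kinase that phosphorylates β-catenin, by 0.37. Among nuclear factors, CTNNBIP1, which blocks β-catenin from TCF, rose by 0.56 and the co-repressor TLE1 by 0.37, while the co-activator CREBBP fell by 0.32. PROM1 rose by 0.57 and ALCAM fell by 0.79.

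Between inhibitors, 10 of the 82 were higher with wortmannin and 8 lower, or 22.0% called, as for 22.2% of all genes. WNT11 differed by -0.56 and TLE1 by -0.40, and EPHB3, a crypt receptor, by 0.56. MYC, a well-known Wnt target, was not called with either inhibitor (0.10 ± 0.07 with wortmannin and -0.01 ± 0.07 with LY294002). CTNNB1, which encodes β-catenin, rose with LY294002 (0.18 ± 0.06, adjusted p = 0.0197) and was not called with wortmannin (0.02 ± 0.06, adjusted p = 0.914). The difference between inhibitors for CTNNB1 was -0.17 ± 0.06 (adjusted p = 0.0537).

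Against vehicle, the 18 extract groups gave 1 called value among 162, SP5 in Poria at 500 µg/mL, which was lower (2.89% of all genes were called lower there and 4.6% higher). Pooled over these comparisons, 0.933% of all gene values were called. By dose from 500 to 20 µg/mL, the share of genes called was 7.49%, 0.0417% and 0% for Poria and 0.25%, 0.364% and 0.137% for Atractylodis. It was 6.91%, 0.34% and 0.37% for Glycyrrhizae and 0.352%, 0% and 0% for Ginseng. It was 0.161%, 0.00596% and 0.173% for Angelicae and 0.161%, 0.0477% and 0% for Paeoniae. Besides SP5, no member value was called by edgeR in any of the 18. Of the 162, 28 had an unadjusted p under 0.05. The share of all genes at that unadjusted threshold was not counted, so the 28 have no background to be read against. DESeq2 called 2 of the 162. Its second call was TCF7 with Angelicae at 20 µg/mL.

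SP5 measured 7.61, 6.90 and 5.46 CPM with Poria at 500 µg/mL, all below the vehicle libraries, a log2 fold change of -0.40 ± 0.11 (adjusted p = 0.0199). The libraries at 100 µg/mL measured 7.37, 8.84 and 7.94 CPM and those at 20 µg/mL 9.75, 8.31 and 8.91 CPM, so both lower doses overlapped vehicle. The lowest of all 60 SP5 values was Poria 500 replicate 3. Without it the change was -0.27 (adjusted p = 0.182), without vehicle replicate 2 it was -0.29 (adjusted p = 0.17), and without vehicle replicate 3 it was -0.41 (adjusted p = 0.0559).

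The first number of a sample code was 1 in vehicle and inhibitor libraries. It was 2 with Atractylodis or Poria, 3 with Ginseng or Glycyrrhizae, and 4 with Paeoniae or Angelicae. What the number stands for is not given in the sources used here. In each extract comparison with vehicle, the treatment and the code number therefore cannot be told apart. The vehicle codes alone carry a letter A before the number, also of unstated meaning. In every comparison with vehicle, those of the inhibitors included, the treatment and that letter cannot be told apart. The contrast of 500 with 20 µg/mL stays within a code number. Over the 6 extracts, it gave 1 called member value of 54, with 1.57% of all gene values called. It was again SP5 with Poria, where 5.51% of all genes were called, 2.3% as lower and 3.21% as higher. From 20 to 500 µg/mL, SP5 fell from 8.99 ± 0.720 to 6.66 ± 1.10 CPM (SD, n = 3 each). This was a log2 fold change of -0.43 ± 0.11 (adjusted p = 0.0131). The doses did not overlap. Without Poria 500 replicate 3 the value was -0.30 (adjusted p = 0.158) and without Poria 20 replicate 1 it was -0.36 (adjusted p = 0.0761).

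ASCL2 was also lower in every library of Poria at 500 than at 20 µg/mL, at 3.30, 3.41 and 2.98 against 3.80, 4.68 and 4.52 CPM, but did not pass the test (-0.43 ± 0.15, adjusted p = 0.0905). The other 5 extracts gave 0 called members between 500 and 20 µg/mL by edgeR or DESeq2. All 6 together had 4 of 54 values at an unadjusted p under 0.05, again without a count over all genes. The share of all genes called was 3.85% for Glycyrrhizae, 0.0358% for Paeoniae, 0.0179% for Angelicae, and 0% for Atractylodis and Ginseng. SP5 with Glycyrrhizae measured 8.16, 8.11 and 7.06 CPM at 500 and 10.2, 8.42 and 9.26 CPM at 20 µg/mL, without overlap and without a call.

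The dose effect itself was compared between the extracts of the same code number. None of the 27 member values was called by edgeR or DESeq2 (0.147% of all gene values were called). Among them, 1 had an unadjusted p under 0.05, a threshold not counted over all genes. The share of all genes called was 0.394% for Poria less Atractylodis, 0.0477% for Glycyrrhizae less Ginseng and 0% for Angelicae less Paeoniae. The lower SP5 with Poria was therefore not shown to differ from the dose effect of Atractylodis.

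**Figure D3:**
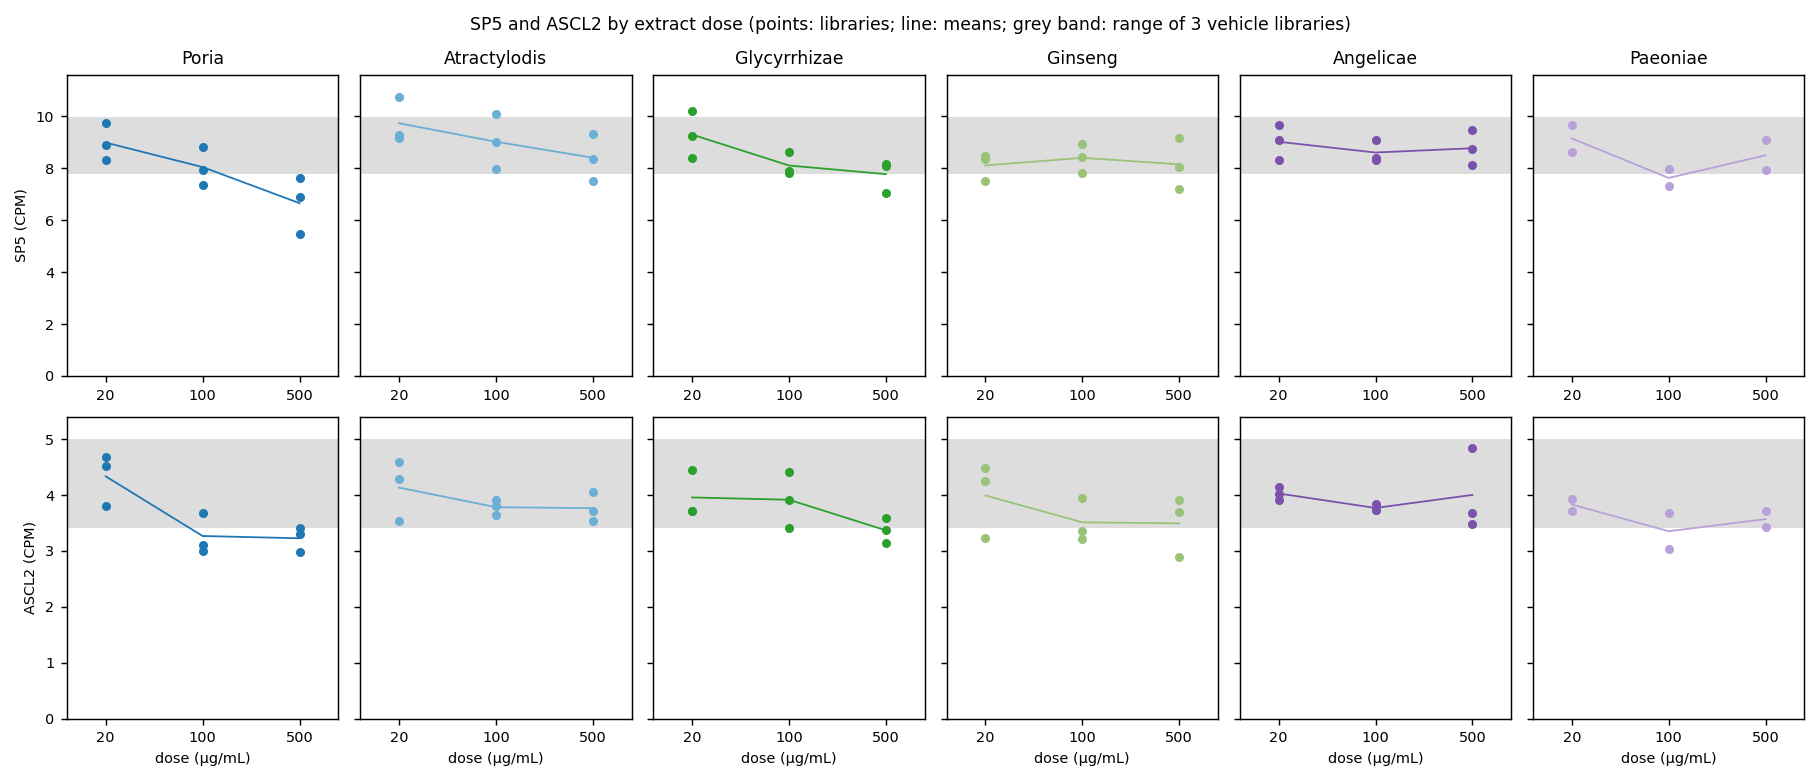
SP5 (top) and ASCL2 (bottom) in CPM (vertical axis, from 0) by dose in µg/mL for each of the 6 extracts. Points are libraries, lines join the means, and the grey band is the range of the 3 vehicle libraries. All 3 SP5 points of Poria at 500 µg/mL are below the band. ASCL2 with Poria at 500 µg/mL is also below it, narrowly, with a highest value of 3.408 CPM against a lowest vehicle value of 3.415 CPM.

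Although almost no single value passed the test, the extract groups lay on one side of vehicle for several members. The mean of AXIN2, RNF43 and TCF7 was below vehicle in all 18 extract groups, and that of ZNRF3, NKD1 and NOTUM in 17 of 18. ASCL2 was below in 15, SP5 in 12 and LGR5 in 8. All 18 groups are compared with the same 3 vehicle libraries, so these are not independent counts. In single comparisons, 47.5% (Poria at 500 µg/mL) to 51.3% (Ginseng at 20 µg/mL) of all genes were above vehicle. How many of all genes stay below vehicle in as many groups was not counted. These counts, and those of libraries below vehicle that follow, are therefore not shown to be particular to the members.

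RNF43 ranged from -0.15 to -0.04 over the extract groups on the log2 scale, with no adjusted p under 0.205. Its extract libraries had a median of 332 CPM (range 311 to 374), and 42 of 51 were below all vehicle libraries. TCF7 ranged from -0.29 with Angelicae at 20 µg/mL (adjusted p = 0.0799) to -0.03 with Poria at 20 µg/mL. Its extract libraries had a median of 75.0 CPM (65.9 to 87.5), and 40 of 51 were below all of vehicle. AXIN2 ranged from -0.31 to -0.10, with a median of 78.3 CPM (69.6 to 102) and 34 of 51 libraries below all of vehicle. ZNRF3 ranged from -0.18 to 0.00, with 37 of 51 below.

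The rare inhibitors had the widest range. NOTUM ran from -0.71 with Glycyrrhizae at 100 µg/mL (adjusted p = 0.162) to 0.05. With Glycyrrhizae at 500 µg/mL, its 3 libraries were at 0.637, 0.666 and 0.770 CPM, all below vehicle (-0.61, adjusted p = 0.139), and the test was not passed. NKD1 ran from -0.54 to 0.03 (adjusted p of at least 0.234). LGR5 lay on both sides of 0, from -0.08 to 0.11, and its 95% intervals (estimate ± 1.96 SE) over the 18 groups lay between -0.22 and 0.25. The intervals of AXIN2 reached from -0.56 to 0.13.

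**Figure D4:**
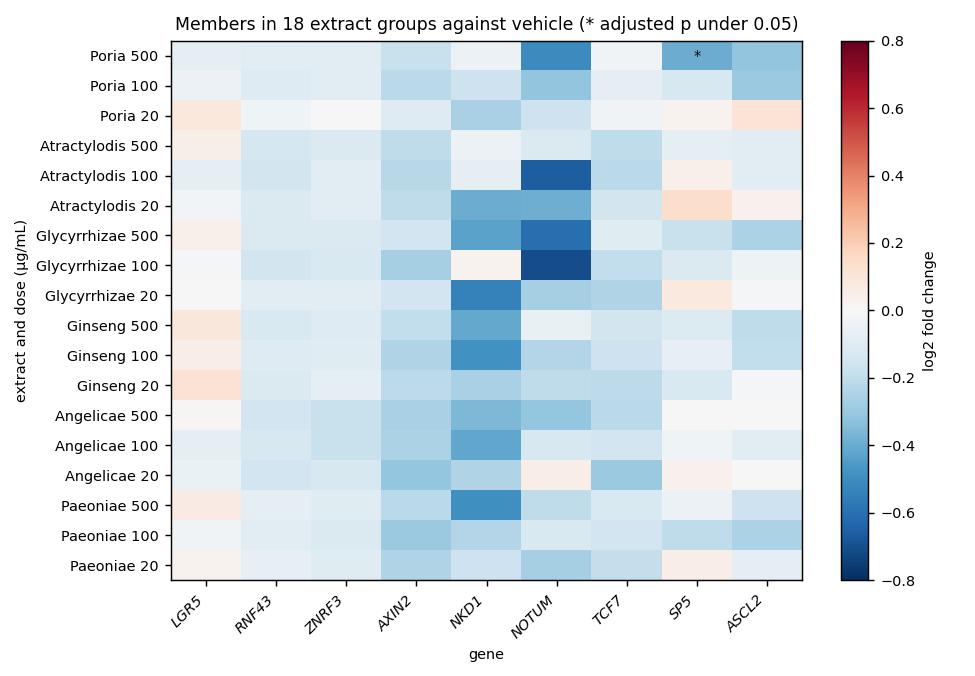
Log2 fold change against vehicle (colour) for the 9 members tested (columns) in 18 extract groups (rows, dose in µg/mL). The star marks the adjusted p under 0.05, SP5 with Poria at 500 µg/mL, and the AXIN2, RNF43 and TCF7 columns are below 0 in all 18 rows.

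Other pathway genes moved in few extract groups. Listed genes were called in 3 of the 18 comparisons with vehicle. With Ginseng at 500 µg/mL, the co-activator EP300 fell by 0.28 (adjusted p = 0.0367), where 0.352% of all genes were called. With Poria at 500 µg/mL, 1 rose and 6 fell, 8.54% of the 82 against 7.49% of all genes. The receptor tyrosine kinase-like ROR1 fell by 0.30, the progenitor factors SOX4 and SOX9 by 0.27 and 0.24, and the crypt gene PTPRO by 0.47, while DVL1, a Dishevelled protein, rose by 0.16. From 20 to 500 µg/mL of Poria, 5 fell and none rose (6.1% of the 82 against 5.51% of all genes), among them PTPRO by 0.51, SOX4 by 0.31 and ROR1 by 0.26. With Glycyrrhizae at 500 µg/mL, 5 fell against vehicle and none rose (6.1% of the 82 against 6.91% of all genes), among them CD44, a surface receptor and Wnt target (-0.22), ROR1 (-0.29) and PROM1 (-0.27). Against 20 µg/mL, 1 rose and 3 fell (4.88% of the 82 against 3.85% of all genes). In each of these comparisons the share of listed genes called was near that of all genes, except for Ginseng with its 1 gene. The riser was NKD2, the relative of NKD1, at 4.72 against 3.16 CPM (0.58, adjusted p = 0.0156).

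Libraries within a group differed by replicate number. In each of the 15 extract groups with 3 libraries, replicate 1 had the highest AXIN2 level, and it was the higher one in all 3 Paeoniae groups. In vehicle, wortmannin and LY294002, replicate 2 was the highest and replicate 3 the lowest in 3 of 3. With Glycyrrhizae at 500 µg/mL, for instance, AXIN2 measured 102, 74.8 and 76.5 CPM in replicates 1, 2 and 3. The standard deviation of AXIN2 within groups was 0.16 on the log2 CPM scale, above the 0.12 of the median gene.

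RNF43 and ZNRF3 shared that order. RNF43 was highest in replicate 1 in 14 of 15 extract groups and ZNRF3 in 13 of 15. Over deviations from group means in 60 libraries, Pearson r was 0.84 between AXIN2 and RNF43, 0.87 between AXIN2 and ZNRF3, and 0.81 between RNF43 and ZNRF3. These points share library and depth, and are given as a description. The crypt stem cell genes went the other way. LGR5 was lowest in replicate 1 in 11 of 15 extract groups and highest there in 0, and r was -0.59 between LGR5 and AXIN2 and -0.63 between ASCL2 and RNF43. TCF7 deviations had r = 0.64 with the mitochondrial share of the counts and AXIN2 deviations had r = 0.03.

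**Figure D5:**
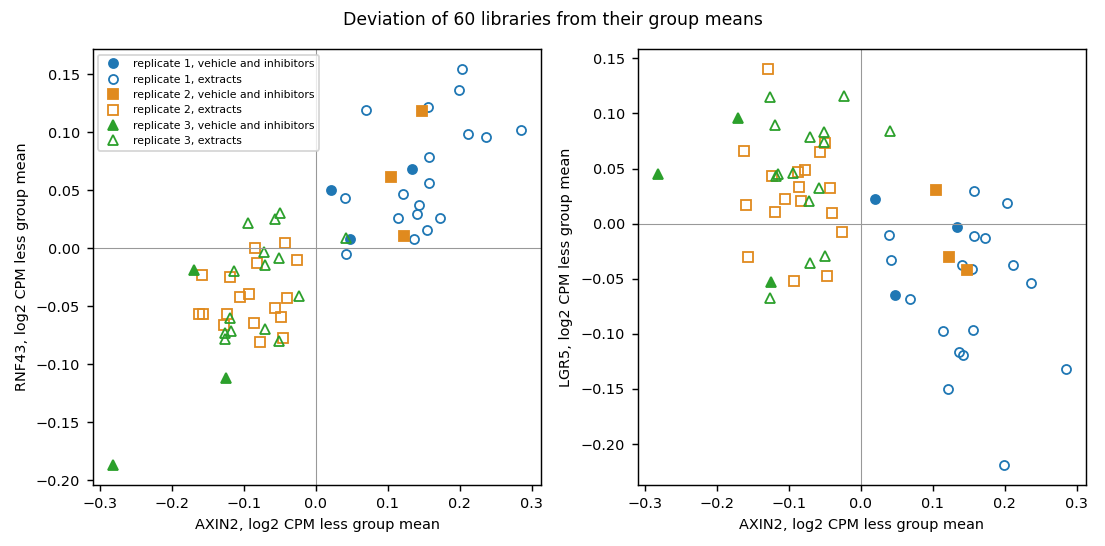
Deviation of each of 60 libraries from its group mean in log2 CPM, AXIN2 on the horizontal axis against RNF43 (left) and LGR5 (right). Colours and shapes are replicate numbers, filled for vehicle and inhibitors and open for extracts. Replicate 1 of the extracts lies to the right of 0 in every group. Among the 15 extract groups of 3 libraries it is the highest for RNF43 in 14 and the lowest for LGR5 in 11.

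Replicate number was therefore entered as a block within each code number, an alternative chosen after the data were seen. For comparisons inside one code number it kept all 12 calls and added 4. Vehicle and inhibitors counted here as the same code number, with the letter of the vehicle codes left aside. Calls over all genes rose as well in the comparisons that gained a member. They went from 6565 to 7185 for LY294002, from 2300 to 3024 for wortmannin and from 924 to 1513 for Poria 500 against 20. With LY294002, AXIN2 was then higher by 0.26 (adjusted p = 3.97e-05) and LGR5 by 0.14 (adjusted p = 0.045). With wortmannin, ASCL2 was higher by 0.35 (adjusted p = 0.0146). From 20 to 500 µg/mL of Poria, ASCL2 was lower by 0.42 (adjusted p = 0.0121). The AXIN2 difference between inhibitors was -0.35 in that fit (adjusted p = 7.21e-07).

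Over the 21 group means, the pattern of AXIN2 was closest to that of RNF43 among members (r = 0.93), and SP5 was closest to ASCL2 (r = 0.88). Among 10616 genes with a mean of at least 5 CPM, the gene most like each of the 8 members with a mean of at least 1 CPM was GDA for LGR5 (r = 0.90), MBTPS1 for RNF43 (0.96), SH3D19 for ZNRF3 (0.92), WBP2 for AXIN2 (0.93), FHDC1 for NKD1 (0.84), SETD5 for TCF7 (0.91), C1RL for SP5 (0.90) and PLEKHB1 for ASCL2 (0.90). These values rest on 21 groups, of which the 2 inhibitor groups are often the extremes, and say nothing of shared function.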

How the data were processed

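Per the labels, 1 µg of RNA with a RIN over 7 gave an MGI directional mRNA library, read as 100 bp pairs. Per the submitters' processing notes, FastQC 0.11.9, Trim Galore 0.6.5, STAR 2.7.3a and RSEM 1.3.3 were used with GRCh38 (hg38). The authors deposited RSEM expected counts per gene, not normalised. Which annotation release and strand setting they used is not given in the sources used here. Of 273 columns, 60 were used and 213 were not. Expected counts were rounded. Symbols and coordinates come from GENCODE 29.

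With edgeR 4.0.16 (R 4.3.3), filterByExpr (minimum count 10, minimum total 15) kept 16767 genes. A TMM-scaled quasi-likelihood model with 21 group means was fitted to all 60 libraries (39 residual degrees of freedom, common coefficient of variation 0.057). P-values were adjusted by Benjamini-Hochberg within each of 30 comparisons over all genes, and a call is an adjusted p under 0.05. The SE follows from the F statistic. The procedure was tested on simulated data.

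The members and gene lists were chosen with earlier results of these data known. All members were named, and of other pathway genes those called with the largest changes in each list. Same-numbered replicates met the pairing rule (every correlation of deviations over 0.1) in 2 of 27 comparisons, wortmannin with vehicle (0.181 to 0.561) and Ginseng 500 with 20 (0.176 to 0.390), where the plain block changed no member call. None of 57 replicate pairs was as alike as counting noise allows. The alternatives were other size factors, no count filter, unrounded counts, DESeq2 1.42.0, a fit of the compared groups alone, a replicate block, the block within code numbers (added after seeing the data) and leaving out each library.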

Additional observations from a re-analysis of the deposited data

How the results depend on the processing

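No called value changed sign in any setting, and size factors of DESeq2 and unrounded counts left all 13 calls in place with none gained. Without a filter on low counts, 11 calls stayed, 2 were lost and 22 were gained, 14 of them AXIN2 and 8 TCF7. Over all genes, calls without the filter also rose in every extract comparison with vehicle. They went from 29 to 1141 for Angelicae at 20 µg/mL and from 0 to 808 for Ginseng at 20 µg/mL. They fell from 2300 to 2030 for wortmannin and from 6565 to 6150 for LY294002 against vehicle. The count of members called became 5 for LY294002 against vehicle, and over the 3 doses against vehicle 2 for Poria, 5 for Atractylodis, 3 for Glycyrrhizae, 4 for Ginseng, 5 for Angelicae and 2 for Paeoniae. With the plain replicate block, 0 calls were lost and 6 gained: 5 members were called for LY294002 against vehicle, 1 each for Glycyrrhizae, Angelicae and Paeoniae against vehicle, and 2 for Poria 500 against 20. Over all genes, the plain block called 7000 for LY294002 against vehicle, where the main fit called 6565. For Poria 500 against 20 it called 1288, where the main fit called 924. The block within code numbers also gave 5 members for LY294002 and 2 for Poria 500 against 20. Fitting the compared groups alone kept 3 calls, lost 10 and gained 1, with 1 member called for LY294002, 0 for wortmannin against LY294002, 0 for Poria against vehicle, 1 for Angelicae against vehicle and 0 for Poria 500 against 20. Over all genes, the fit of the compared groups alone called 1377 between inhibitors, where the main fit called 3718. For Poria 500 against vehicle it called 239, where the main fit called 1256. For Angelicae 20 against vehicle it called more, 388 where the main fit called 29. DESeq2 called 1 member for Angelicae against vehicle. The cause was not tested. Leaving out 1 library gave 2 to 3 called members for wortmannin, 1 to 4 for LY294002, 2 to 4 between inhibitors, 0 to 1 for Poria against vehicle and for Poria 500 against 20, and 0 in every other comparison. In all but those 2 comparisons (wortmannin with vehicle, Ginseng 500 with 20), same-numbered replicates did not meet the pairing rule. The mean correlation of deviations between groups was 0.128 where numbers matched and -0.0636 where they did not. Libraries of the same number were thus somewhat more alike on average. NOTUM and NKD1, with 12 to 58 counts per library, are limited by depth.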
